A study of Mus musculus with 5 samples.

Results

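The loci described here belong to 10 mouse genes of the neuronal Elavl, Rbfox, Nova and Celf families of RNA-binding proteins, namely Elavl2, Elavl3, Elavl4, Rbfox1, Rbfox2, Rbfox3, Nova1, Nova2, Celf4 and Celf5. Every region of the deposited table that overlapped the body of one of these genes or lay within 20 kb of it was taken, with gene bodies from GENCODE M21 on mm10, and the measured signal played no part in that choice. This gave 21 of the 8038 regions, at 9 of the 10 genes, and Nova2 had none. The data are CUT&Tag libraries, in which an antibody steers a transposase to the DNA around its target. Each library was made from the pooled retinas of wild-type embryos at the E16.5 stage of gestation, 4 retinas to a pool, and the study kept its mice on a mixed C57BL6/129 background. The comparison is between 2 libraries made with rabbit anti-Pou4f1 and 2 made with rabbit IgG, a negative control antibody with no specific target in the retina. One IgG column is named for IgG and the other as a negative control, and 1 library for acetylated H3K9 was not analysed here.

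Pou4f1 (Brn3a) is a POU-homeodomain transcription factor that, in the retina, is made in retinal ganglion cells, the neurons whose axons form the optic nerve. Proteins of the 4 families act after transcription. Elavl (Hu) proteins bind U-rich and AU-rich stretches of RNA and alter splicing and mRNA stability, and Elavl2, Elavl3 and Elavl4 are the neuronal members, widely used as early markers of postmitotic neurons including ganglion cells. Rbfox proteins bind the RNA word GCAUG beside alternative exons, and Rbfox3 is the antigen known as NeuN. Nova proteins bind clusters of YCAY, where Y is a pyrimidine, and Celf proteins bind GU-rich RNA, both in the control of neuronal splicing. Several of these genes are very long and have many alternative starts, so where a region lies along a gene is part of its description.

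The sequences that the results turn on are shown first, read from GRCm38.p6, the mm10 assembly, on the strand of the gene, 5′ to 3′. None of these windows overlaps an annotated exon. The first 3 windows end just upstream of a start inside the gene, at the regions of Elavl2 and Elavl4, and were chosen after the values were seen to show how unlike each other such starts are in base composition. The window at chr4:91372070-91372219 is 78% G or C, that at chr4:91376497-91376646 is 56% and that at chr4:110287528-110287677 is 46.7%, with 14, 10 and 3 CG dinucleotides.
Elavl2, internal start, chr4:91372070-91372219, minus strand: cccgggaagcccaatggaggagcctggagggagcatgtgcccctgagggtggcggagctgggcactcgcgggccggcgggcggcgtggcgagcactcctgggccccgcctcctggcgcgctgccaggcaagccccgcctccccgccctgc
Elavl2, internal start, chr4:91376497-91376646, minus strand: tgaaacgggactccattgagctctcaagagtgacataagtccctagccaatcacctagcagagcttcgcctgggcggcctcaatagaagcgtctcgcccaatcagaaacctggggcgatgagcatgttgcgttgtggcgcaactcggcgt
Elavl4, internal start, chr4:110287528-110287677, minus strand: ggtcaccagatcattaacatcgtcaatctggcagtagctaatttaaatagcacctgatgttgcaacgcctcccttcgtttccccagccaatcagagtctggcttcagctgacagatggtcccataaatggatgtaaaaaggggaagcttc

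Next come the windows within Rbfox1 and Rbfox3 and the one before Nova1. Capitals mark a match to TNAATAATT or TNAATTATT on either strand, the last 9 letters of the Pou4 consensus. Where matches on opposite strands overlap, as in TNAATTATTNA, the whole joined stretch is in capitals. In the second Rbfox1 window capitals mark the looser TNAATNATT in the same way. The first Rbfox1 window is the centre of the only region with a match in its central 200 bp, the second is the centre of the body region of highest signal, the Rbfox3 windows lie around matches farther from the centre, and the Nova1 window is the centre of the start region of highest signal and holds no match.
Rbfox1, intron, chr16:6683188-6683387, plus strand: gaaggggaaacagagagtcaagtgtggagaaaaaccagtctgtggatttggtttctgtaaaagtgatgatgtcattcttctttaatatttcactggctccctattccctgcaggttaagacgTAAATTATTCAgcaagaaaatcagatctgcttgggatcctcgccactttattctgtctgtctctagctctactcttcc
Rbfox1, intron, chr16:7050885-7051084, plus strand: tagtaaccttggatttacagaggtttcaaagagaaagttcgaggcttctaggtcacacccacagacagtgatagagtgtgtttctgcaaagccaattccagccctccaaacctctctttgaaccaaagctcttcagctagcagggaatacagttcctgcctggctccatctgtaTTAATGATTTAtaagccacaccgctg
Rbfox3, intron, chr11:118600181-118600280, minus strand: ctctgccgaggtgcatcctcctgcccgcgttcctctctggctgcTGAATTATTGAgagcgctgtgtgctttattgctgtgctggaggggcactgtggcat
Rbfox3, intron, chr11:118874624-118874723, minus strand: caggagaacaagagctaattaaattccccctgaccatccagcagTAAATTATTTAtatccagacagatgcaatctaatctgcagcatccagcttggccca
Rbfox3, upstream, chr11:118919941-118920040, minus strand: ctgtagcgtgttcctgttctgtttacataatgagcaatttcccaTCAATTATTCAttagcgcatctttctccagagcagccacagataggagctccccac
Nova1, upstream, chr12:46819704-46819903, minus strand: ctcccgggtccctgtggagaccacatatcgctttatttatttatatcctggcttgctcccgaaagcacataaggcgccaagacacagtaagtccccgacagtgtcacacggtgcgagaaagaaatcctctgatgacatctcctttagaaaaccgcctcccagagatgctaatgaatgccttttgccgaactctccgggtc

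Pou4f1 signal above IgG was found at each of the 4 families, but the regions lay in different places from gene to gene. Elavl2, Elavl4, Rbfox2 and Nova1 had regions at their own starts, Rbfox1, Rbfox3 and Celf4 had regions inside introns far from any of their starts, and Elavl3 and Celf5 had only regions outside the gene, at the starts of neighbouring genes. Of the 21 regions, 7 had their midpoint within 1 kb of an annotated start of the member gene (start regions), 10 lay elsewhere in the gene body (body regions) and 4 lay outside it (flank regions). The value given for each region is the authors' signal, a mean coverage over the region scaled per library. Values are given for Pou4f1 replicate 1 and then 2, and for the IgG library of that name before the one named as a negative control. On log2(signal + 1), limma called 14 of the 21 regions higher in Pou4f1 than in IgG (66.7%) at a Benjamini-Hochberg adjusted p under 0.05 over all regions, and none lower. Of all regions 64.8% were called higher, so the share among these loci was close to the background. In 20 of the 21 regions both Pou4f1 values exceeded both IgG values, against 96.5% of all regions. The regions of the table were themselves selected by the authors as Pou4f1 peaks, so that an excess over IgG is in part built into the table. The pools hold all cells of the retina, so binding in more cells and more binding per cell cannot be told apart.

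The level of Pou4f1 signal at these loci was ordinary for the table. Over the 21 regions the median was 176 for Pou4f1 replicate 1, 165 for replicate 2, 8.12 for the IgG library of that name and 9.12 for the one named as a negative control, and the medians over all regions were 184, 155, 4.78 and 7.96. Ranked by mean Pou4f1 signal among all 8038 regions, the members ran from 992 to 7787 with a median of 3395. None was in the upper 1% of the table, 7 were in the upper 25% and 11 were above the median. The median log2 difference was 5.51, from 1.52 to 8.40, beside 5.22 over all regions. The share called differed with the number of IgG libraries in which a region was listed at 0. All 4 member regions listed at 0 in both IgG libraries were called, as were 99.7% of all such regions, while 5 of the 8 listed at 0 in a single IgG library were called, against 39.4% of all such regions. Of the 9 with signal in both IgG libraries 5 were called, against 74.1%. The log2 differences depend on the value added before the log, the pseudocount, which was 1. With 0.1 and 10 in its place the median over the 21 regions was 7.19 and 3.67. For the Rbfox1 region at chr16:7050590-7051380, listed at 0 in both IgG libraries, 8.40 became 11.72 and 5.12. For regions listed at 0 in both IgG libraries no log2 difference is therefore given gene by gene below. The authors' scaling of the libraries is not stated, and the calls depend on it: with column totals as library sizes 4 of the 21 regions were called higher (22.7% of all regions). Those totals, taken over regions selected as Pou4f1 peaks, are 13.7 to 19.9 times as large for Pou4f1 as for IgG. Scaling by them lowered the log2 difference of each of the 21, also where both IgG values are 0. For the Rbfox1 region at chr16:7050590-7051380 the difference fell from 8.40 to 7.49. It changed sign in 8 of the 21 and in 21.9% of all regions. Without Pou4f1 replicate 1, or without replicate 2, 5 of the 21 were called, against 29.4% and 30.9% of all regions, and the region of Rbfox2 at its 5′ start, that of Celf5 and those of Rbfox1 with both IgG libraries at 0 were among them each time.

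**Figure D1:**
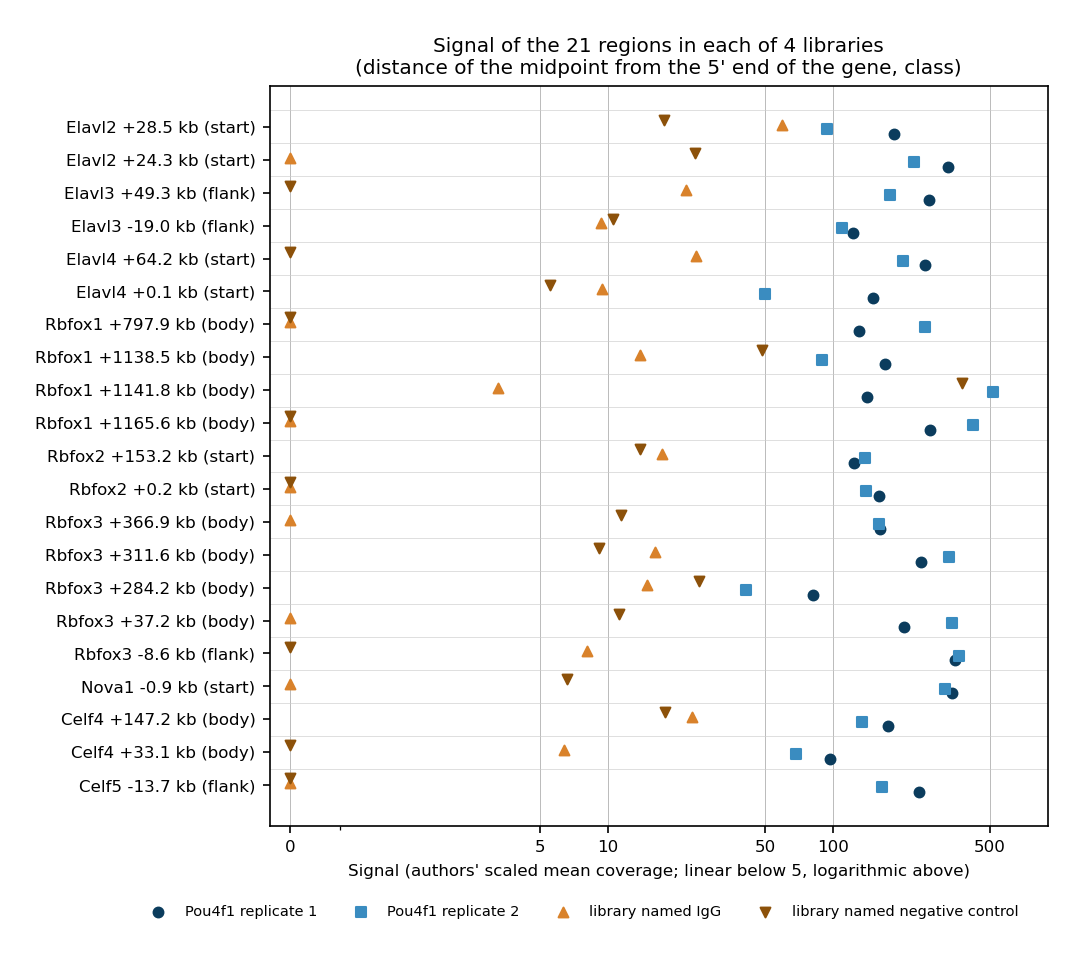
Signal of each of the 21 regions (rows, named by gene and by the distance of the midpoint from the 5′ end of the gene) in the 2 Pou4f1 and 2 IgG libraries, on an axis that is linear below 5 and logarithmic above. The Pou4f1 symbols lie to the right of both IgG symbols in every row except the Rbfox1 region at 1141.84 kb, where the library named as a negative control stands at 374, between the Pou4f1 replicates.

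**Figure D2:**
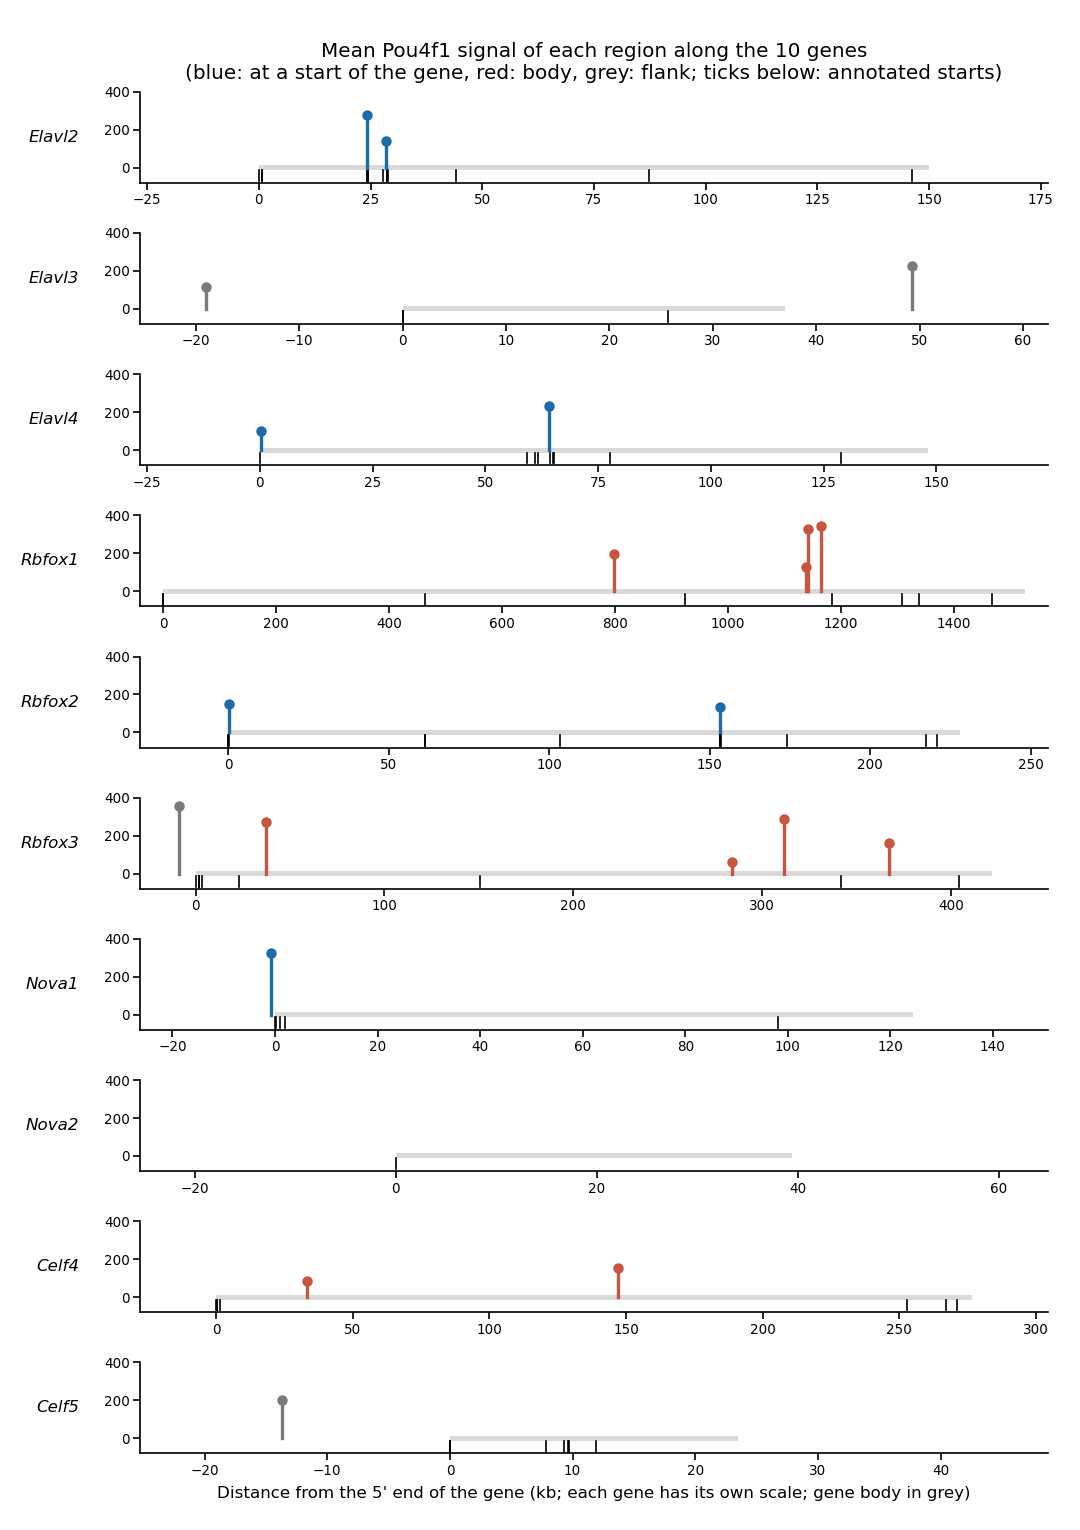
Mean Pou4f1 signal (vertical axis) of each region along the 10 genes, drawn from the 5′ end on the left, with a separate scale in kb for each gene. Ticks under the grey gene body are annotated starts; start regions (blue) stand on ticks in Elavl2, Elavl4, Rbfox2 and Nova1, body regions (red) stand between ticks in Rbfox1, Rbfox3 and Celf4, and Nova2 is empty.

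Elavl2 (HuB; ENSMUSG00000008489.18, chr4:91250763-91400785, minus strand, 150.02 kb) has 15 distinct annotated starts, and Pou4f1 regions lay at 2 clusters of starts inside the gene and not at the 5′-most start, which was 23.8 kb from the nearest region. The region at chr4:91376060-91376978 holds 4 annotated starts, with its midpoint 23 bp from one of them and 24.3 kb from the 5′ end. Pou4f1 signal there was 325 in replicate 1 and 230.0 in replicate 2, while IgG gave 0 and 24.5. Both Pou4f1 values lay well above both IgG values, but limma did not call the difference, with a log2 difference of 5.76 (SE 1.89) and an adjusted p of 0.0659. The region at chr4:91371873-91372669, with 4 starts, was the weaker of the pair, with Pou4f1 at 188 and 94 against 59.3 and 17.8 in the IgG libraries in the same order. The value of 59.3 is the highest in the library named IgG over the 21 regions, and the log2 difference was 1.99 (SE 0.85, adjusted p 0.107). The GC-rich window printed above comes from this weaker region. Overlap of the groups was not seen in either region of Elavl2, and neither passed the test.

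Elavl4 (HuD; ENSMUSG00000028546.17, chr4:110203722-110351909, minus strand, 148.2 kb), a gene of nearly the same length as Elavl2 on the same chromosome, had a region at its 5′-most start and another at an internal start 64.2 kb into the gene. At the 5′ start, chr4:110351115-110352402, Pou4f1 reached 151 and 50.1 against 9.47 and 5.52. This was called higher (log2 difference 3.42, SE 0.77, adjusted p 0.0357), although replicate 2 reached only 0.33 of replicate 1, the lowest ratio of the 21 regions. At the internal start, chr4:110287463-110287939, which holds 1 annotated start, the signal was larger, 258 and 206 against 24.8 and 0, and the replicates lay closer, with a ratio of 0.80. It was not called (log2 difference 5.51, SE 1.89, adjusted p 0.0714). The IgG libraries, at 24.8 and 0, differed from each other more than the Pou4f1 libraries did on the log scale. If the smallest step of that library is a base of coverage, 24.8 amounts to 155 bases, from reads of 75 nt. The difference between the IgG libraries may thus rest on very few reads.

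Elavl3 (HuC; ENSMUSG00000003410.8, chr9:22015005-22052023, minus strand, 37.0 kb) had no region in its body or at its starts. One region within 20 kb, chr9:22070407-22071714, lay 18.4 kb upstream at the start of Zfp653 and of the antisense gene Gm16845, with Pou4f1 at 123 and 109.6 and IgG at 9.33 and 10.5. It was called higher (log2 difference 3.42, SE 0.38, adjusted p 0.00825), and the 2 values within each group lay close together. The other, chr9:22002346-22003163, lay 11.8 kb past the 3′ end at the shared start of Prkcsh and Ccdc151. Its signal was 267 and 180 against 22.4 and 0, and it was not called (log2 difference 5.51, SE 1.84, adjusted p 0.0686). Both regions are nearer to the starts of other genes than to Elavl3, and the table does not say which gene a region acts on.

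Rbfox1 (ENSMUSG00000008658.16, chr16:5885355-7411526, plus strand) is the longest member at 1526 kb, and its 4 regions were all intronic, with no exonic base and between 18.9 and 125.9 kb from the nearest of its 8 starts. The regions at chr16:6682711-6683864, in intron 3 of the longest coding transcript, and at chr16:7050590-7051380 were listed at 0 in both IgG libraries. The first had Pou4f1 values of 131 and 257 (adjusted p 0.00294), and replicate 2 was 1.96 times replicate 1. The second had 271 and 420.2 (adjusted p 0.00222), which made it the strongest body region, at rank 1075. Both were called higher in Pou4f1.

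The other 2 Rbfox1 regions lay 2444 bp apart, and the library named as a negative control was high in both, at ranks 409 and 11. In the library named IgG they ranked 2001 and 4096 of 8038. At chr16:7023452-7024325 the Pou4f1 signal was 171 and 89.6 against 14 and 48.3, which was not called (log2 difference 2.20, SE 0.86, adjusted p 0.0892). At chr16:7026770-7027612 the Pou4f1 signal was 142 and 514, while IgG gave 4.16 and 374, the latter in the column named as a negative control. Here the groups overlapped, the only such case among the 21 regions, and the 2 IgG libraries differed by 89.9-fold. The value of 374 ranked 11th of 8038 regions in that library. The log2 difference was 2.63 (SE 2.57, adjusted p 0.383), and it became 5.72 without the library named as a negative control and -0.47 without the one named IgG. Repeats annotated in the genome covered 26% of this region and its GC content was 58.4%, and their part in the IgG signal was not tested.

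Rbfox2 (ENSMUSG00000033565.18, chr15:77078990-77307004, minus strand, 228.0 kb) differed from its paralogues in that both of its regions were start regions. At the 5′ starts, chr15:77306146-77307462, the Pou4f1 signal was 161 and 141 and both IgG libraries were listed at 0 (adjusted p 0.00222). This is a GC-rich region (69.3%) with 3 starts and 641 bp of exon. At a cluster of 4 internal starts 153.2 kb into the gene, chr15:77153300-77154323, the signal was 125 and 139 against 17.5 and 13.9, and it was called higher (log2 difference 3.0, SE 0.40, adjusted p 0.0120). The Pou4f1 replicates lay close together in both regions, with ratios of 0.87 and 1.12.

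Rbfox3 (NeuN; ENSMUSG00000025576.17, chr11:118489762-118911597, minus strand, 421.8 kb) had the most regions of any member, 5 in all, with 4 in introns and 1 upstream, and 4 of the 5 were called higher. Over all regions 64.8% were called higher. None of the 4 Rbfox3 calls remained with column totals as library sizes, a setting that called 22.7% of all regions. With a pseudocount of 0.1, which called 43.4% of all regions, only the call at chr11:118599268-118600778 remained. The upstream region, chr11:118919777-118920527, began 8.18 kb beyond the 5′ end and had the highest mean Pou4f1 signal of the 21 regions, at rank 992. Its signal was 349 and 364 against 8.12 and 0 (log2 difference 6.89, SE 1.31, adjusted p 0.0259), and the replicates were nearly equal, with a ratio of 1.04. No annotated start of any gene lay within 8.55 kb of its midpoint.

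Inside Rbfox3, the intron 1 region at chr11:118873743-118874992, 37.2 kb from the 5′ end, had a signal of 206 and 338 against 0 and 11.2 (log2 difference 6.25, SE 1.5, adjusted p 0.0392). The intron 4 region at chr11:118599268-118600778 had 245 and 328 against 16.1 and 9.12 (log2 difference 4.43, SE 0.51, adjusted p 0.00857). Farther along the same intron, chr11:118544095-118545335 had 162 and 160 against 0 and 11.5 (log2 difference 5.52, SE 1.48, adjusted p 0.0475), just past the threshold. These 3 regions were called higher. The intron 3 region at chr11:118626795-118628065 was the weakest of the 21, at rank 7787, with 81.9 and 41.1 against 15.0 and 25.5, and it was not called (log2 difference 1.52, SE 0.61, adjusted p 0.0938).

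The paralogues Nova1 and Nova2 differed in whether a region was present at all. Nova1 (ENSMUSG00000021047.7, chr12:46694517-46818929, minus strand, 124.4 kb) had 1 region, chr12:46819331-46820276, whose nearest edge lay 402 bp upstream of the 5′-most start and whose midpoint was 874 bp from it. The Pou4f1 signal was 339 and 316 against 0 and 6.58 (log2 difference 6.90, SE 1.21, adjusted p 0.0219), the highest of the 7 start regions, at rank 1231. Nova2 (ENSMUSG00000030411.16, chr7:18925888-18965319, plus strand, 39.4 kb) had none, and the nearest region in the table was 64.6 kb from its 5′ end, at Mypop. The table lists selected peaks only, so Nova2 has no value here that could be set beside that of Nova1.

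Celf5 (ENSMUSG00000034818.16, chr10:81459227-81482709, minus strand, 23.5 kb), the shortest member, had 1 region, chr10:81495937-81496864, which lay 13.2 kb upstream with its midpoint 8 bp from the start of Ncln. The Pou4f1 signal was 242 and 165 with both IgG libraries listed at 0 (adjusted p 0.00222), and it was called higher. No region lay in the body of Celf5 or at its own starts.

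Celf4 (ENSMUSG00000024268.16, chr18:25477632-25754157, minus strand, 276.5 kb) had 2 intronic regions and none at a start, and both were called higher. The region in intron 2, chr18:25606548-25607338, 147.2 kb from the 5′ end, gave 176 and 135 with Pou4f1, and 23.7 and 18 with IgG (log2 difference 2.84, SE 0.43, adjusted p 0.0161). The one in intron 1, chr18:25720604-25721553, 33.1 kb from the 5′ end, had 97.5 and 68.4 against 6.42 and 0 (log2 difference 4.92, SE 1.22, adjusted p 0.0413). Both lay below the median rank of the 21 regions, at 4615 and 7285. Of all regions beyond 1 kb from a start 69.7% were called higher.

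Start and body regions of these genes were much alike in level and differed in how the replicates compared. The median of the mean Pou4f1 signal was 151 over the 7 start regions, 178 over the 10 body regions and 214 over the 4 flank regions. Body regions exceeded start regions by a median log2 signal of 0.23, a difference of -0.17 in replicate 1 and of 0.53 in replicate 2, so that its direction was not the same in both replicates. Replicate 2 was below replicate 1 in 6 of the 7 start regions, with a median ratio of 0.798, and above it in 5 of the 10 body regions, with a median ratio of 1.16. The same lean is seen over the whole table, in which the median ratio was 0.701 for regions within 1 kb of any start and 1.16 beyond. With 2 libraries in a group the smallest exact two-sided permutation p is 0.333, so these values are a description. The classes also differed in base composition, with a median CpG observed-to-expected ratio of 0.785 in start regions and 0.215 in body regions, close to 0.772 and 0.243 in all regions near to and away from starts. Of the 7 start regions 4 were called higher, against 62.1% of all regions within 1 kb of a start, and of the 10 body regions 7, against 69.7% of all regions beyond. These shares are near the background. Of the 4 flank regions 3 were called, against 64.8% of all regions. Among the 3 flank regions at a start of another gene 2 were called, beside the 62.1% given above.

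**Figure D3:**
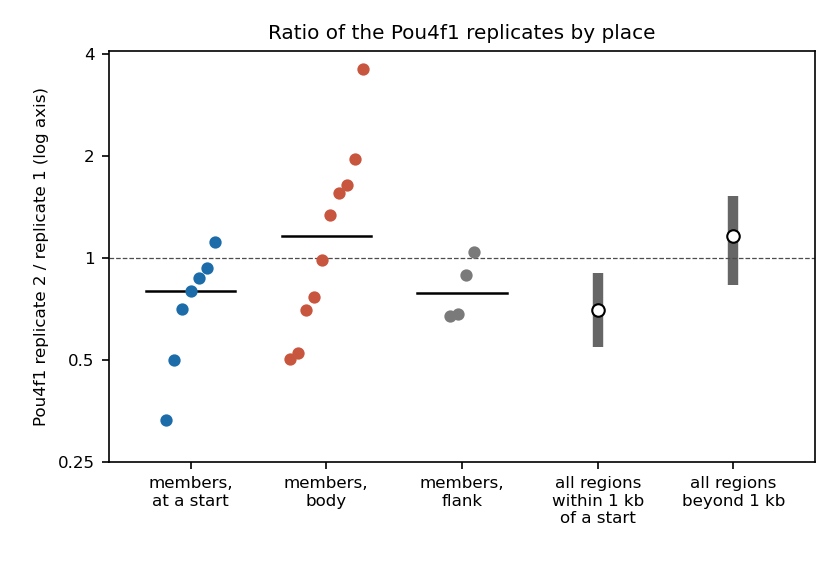
Ratio of Pou4f1 replicate 2 to replicate 1 (log axis) for each member region by class, with the class median as a black line, beside the median (white point) and the range from the 25th to the 75th percentile (grey bar) of all regions within and beyond 1 kb of a start. Start regions run from 0.33 to 1.12 and body regions from 0.50 to 3.62, the highest being the Rbfox1 region with strong signal in an IgG library.

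The 9-letter Pou4 motif defined above was found within 5 of the 21 regions, none of them at a start of a member gene. They are 1 region of Rbfox1, 3 of Rbfox3 and the intron 1 region of Celf4, and all 5 were called higher in Pou4f1, as were 80.5% of all regions with the motif. In the central 200 bp alone it was found in 1 region, the Rbfox1 region shown above, where it lay 28 bp from the centre, against 5.62% of all regions. In the Rbfox3 regions the match lay 208, 306 and 161 bp from the centre, and in Celf4 106 bp. Over whole regions the motif was present in 14.3% of the table, in 3.89% of regions near a start and in 32.9% of those beyond 1 kb, and the member counts were 0 of 7 start regions, 4 of 10 body regions and 1 of 4 flank regions. The looser TNAATNATT was found in 7 member regions, adding 2 more of Rbfox1, beside 16.9% of the table. All 5 matches run on as TNAATTATTNA, a form noticed after the data were seen, but so do 83.8% of the table's regions with the 9-letter motif. Replicate 2 exceeded replicate 1 in 4 of the 5 regions with the motif. Over the whole table it did so in 71.2% of regions with the motif and in 76.2% of those away from a start. A match is a description of the letters and not a measured site.

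The number of regions at a gene rises with its length, and only Rbfox3 and Rbfox1 had more than 2. Of 21755 protein-coding genes, 58.8% had no region by the same rule and the mean was 0.583. Rbfox3, with 5, had more than 99.6% of coding genes, and genes of 200 to 500 kb had a mean of 1.16 with a 90th percentile of 3. Rbfox1, with 4, had more than 99.1% of coding genes but only matched the 90th percentile of the 230 genes longer than 500 kb, whose mean was 1.94. Per 100 kb searched, Rbfox3 held 1.08 regions and Rbfox1 0.255, against 0.653 over all coding genes pooled. The highest density was at Elavl3, with 2.60 per 100 kb, and there both regions are at starts of other genes. Elavl2 and Elavl4 had nearly equal densities of 1.05 and 1.06.

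**Figure D4:**
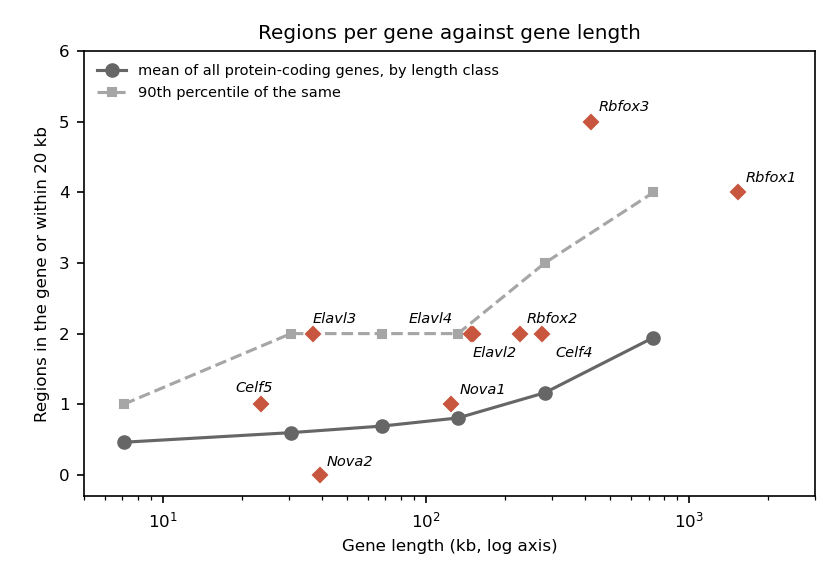
Number of table regions in each member gene or within 20 kb of it (red diamonds) against gene length in kb on a log axis, with the mean (grey circles) and 90th percentile (grey squares) of all protein-coding genes by length class. Rbfox3 with 5 regions lies above the 90th percentile of its class, Rbfox1 with 4 lies level with it at a greater length, and Nova2 lies at 0.

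A list of 30 other genes for RNA-binding proteins of the same and neighbouring families, among them Elavl1, the widely expressed HuR, as well as Ptbp, Mbnl, Khdrbs, Msi and Cpeb genes, was set beside the members. Of these, 22 had regions by the same rule, 33 in all, and 8 had none. Limma called 18 of the 33 higher in Pou4f1 (54.5%, against 64.8% of all regions) and none lower. Both Pou4f1 values exceeded both IgG values in 32, against 96.5% of all regions. The median log2 difference was 5.77, beside 5.22 over all regions. By class 16 were start regions, 9 body and 8 flank, and 15 of the genes had a region at one of their own starts. The highest mean signal was at Khdrbs2 (SLM1, a STAR-family splicing factor), chr1:32172173-32173200, with 763 and 715 against 0 and 13.7, called higher with an adjusted p of 0.0304 and at rank 86 of the table. Mbnl1, a muscleblind splicing factor, followed with chr3:60527475-60528416, at 571 and 783 against 0 and 44.4, which was not called (adjusted p 0.0679). Khdrbs1 (Sam68) had the third, chr4:129702199-129703451, at 398 and 578 against 0 and 21.6 (adjusted p 0.0492), which is a flank region nearest to the start of Tmem39b. Khdrbs1 also had the most regions, 4, followed by Khdrbs3 with 3. Each of these 3 leading regions had a higher mean Pou4f1 signal than any of the 21 member regions.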

How the data were processed

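CUT&Tag libraries were prepared by the authors with rabbit anti-Pou4f1 (n = 2) and rabbit IgG (n = 2) from pools of 4 wild-type retinas at E16.5. Reads were trimmed, masked and mapped to mm10 with Bowtie2 2.4.5, and peaks were called with SEACR in relaxed mode, per the labels and methods. The deposited values are a signal, the authors' mean coverage over each region after a scaling per library that no source states, and they are not whole read counts. Multiplied by region length, they are multiples of a step of 45.0 and 61.2 (Pou4f1 replicates), 76.2 (the library named IgG) and 88.9 (the one named as a negative control). If a step is a base of coverage from 75-nt reads, many IgG values stand for few reads. They are 160 and 155 bases for Elavl3 at 22070407 and 0 and 70 for Nova1, but 46 and 3546 for Rbfox1 at 7026770. The depth of the libraries is unknown. Whether peaks were called on pooled replicates, and how duplicate fragments were treated, is not given either. The IgG columns carry no replicate number. The column named as a negative control was taken as IgG, the only negative control antibody in the study.

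Log2(signal + 1) was fitted with limma 3.58.1 in R 4.3.3 on all 8038 regions, with no covariate, filter or rescaling, and tested two-sided with Benjamini-Hochberg adjustment at 0.05. The fit was run on simulated data with normal spread on the log scale, assigned at random over regions. In the real data 3716 and 3470 regions are at 0 in the library named IgG and the other IgG library. The simulation therefore cannot test calls that turn on such zeros. P-values measure only the spread between these libraries, which limma shares across regions. Whether the Pou4f1 and IgG libraries came from the same pools is not stated. Regions were placed on GENCODE M21 with Python 3.11.15, with coordinates counted from 1, and sequences were read with pysam 0.24.0. Motif counts cover the 8028 regions on the main chromosomes. Start, body and flank classes, motif counts and regions per gene are descriptions with no test. All members were named, and of the 30 related genes those with the 3 regions of highest mean Pou4f1 signal or with the most regions. The windows at motif matches of Rbfox3 and at internal starts of Elavl2 and Elavl4 were added after values were seen. The members and lists were chosen with earlier results of these data known. Alternatives were other pseudocounts, scalings, filters, motif forms and distances, and each library left out.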

Additional observations from a re-analysis of the deposited data

How the results depend on the processing

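No member region was called lower in Pou4f1 under any alternative run. Shares of all regions called under the same setting stand in parentheses. The count called higher was 14 (64.8%) and stayed within 1.5 times of that, from 14 to 18, with a pseudocount of 10 (92.6%), a trend of spread on level, both filters and a minimum log2 difference of 1. It was 8 with a pseudocount of 0.1 (43.4%), 7 with IgG signal multiplied by 2 (36.7%), 4 with it multiplied by 4 (26.8%) and 4 with column totals as library sizes (22.7%). The 4 that remained under the last 2 settings are those listed at 0 in both IgG libraries, so none of them is at Rbfox3 or Nova1. An IgG value of 0 stays at 0 however it is scaled. That these 4 remained was thus largely fixed in advance and is no support for them. The 6 calls lost with a pseudocount of 0.1 were Elavl4 at 110351115, Rbfox3 at 118544095, 118873743 and 118919777, Nova1, and Celf4 at 25720604. Leaving out 1 library gave 5 to 20, with 5 without Pou4f1 replicate 1 (29.4%) or 2 (30.9%), 18 without the library named IgG (94.4%) and 20 without the one named as a negative control (95.9%). The lone library left is assumed to vary like the other group. For the related genes the count of 18 became 32 with a pseudocount of 10 (92.6%), 11 with IgG multiplied by 4 (26.8%) and 10 with column totals (22.7%), and ran from 12 to 33 with 1 library left out.

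Column totals lowered the median log2 difference of all regions from 5.22 to 2.74 and changed the sign in 21.9% of them. With them the difference was -2.0 for the Elavl2 region at 91371873, -0.49 for Elavl3 at 22070407, -0.45 for Elavl4 at 110351115, -1.78 and -1.28 for Rbfox1 at 7023452 and 7026770, -0.96 for Rbfox2 at 77153300, -2.44 for Rbfox3 at 118626795 and -1.14 for Celf4 at 25606548. The same Rbfox3 region was at -0.42 with IgG multiplied by 4, and the Rbfox1 region at 7026770 was at -0.47 without the library named IgG and 5.72 without the other. Multiplying IgG lowers each region that has IgG signal. In the Rbfox1 region at 7026770 the IgG values were 4.16 and 374, so the difference there depends on which of them is kept. Why the 2 IgG libraries differed in that region was not tested.

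The motif count of 1 in the central 200 bp became 5 over whole regions, 2 with the looser motif and 0 with the 10-letter consensus. The log2 difference of body from start regions, 0.23 in the main run, was 0.28 at a distance of 500 bp. By signal times length it was 0.65. A distance of 3 kb and counting by any base gave the same class counts and the same 0.23, so these runs are no separate check. The direction was not stable across replicates, with 0.53 without Pou4f1 replicate 1 and -0.17 without replicate 2. Regions per gene summed to 16, 18 and 24 at 0, 10 and 50 kb. No paired analysis was possible because the IgG columns carry no replicate number. Depth is unknown, so an IgG value of 0 sets no limit on the background.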
